A study of Mus musculus with 6 samples.

Results

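The genes described here encode 31 proteins of the lysosome: 7 cathepsins, 8 membrane proteins, 11 other hydrolases, 3 soluble cofactors and carriers, and the transcription factors Tfeb and Tfe3. They were chosen by symbol, and each of the 31 was found once among the 28212 genes of the deposited table. RNA sequencing of poly(A) RNA was done on LD-1, a line of mouse cholangiocarcinoma (bile duct cancer). One group received HGF (hepatocyte growth factor, which activates the receptor tyrosine kinase Met), and the other is labelled Control, with 3 libraries in each. The labels give one cell line for all 6 libraries, also call the source cholangiocarcinoma tissue, and state no dose, no exposure time and no genetic change. They do not say that the libraries of a group came from separate cultures, and the p-values rest on the spread among these libraries, possibly a technical one.

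The lysosome is the acid compartment in which cells degrade proteins, glycans, lipids and RNA taken up from outside or delivered by autophagy. Its soluble enzymes are tagged with mannose 6-phosphate in the Golgi and carried in by receptors, its limiting membrane is protected by heavily glycosylated proteins such as Lamp1, and a vacuolar proton pump keeps it acid. The transcription factors Tfeb and Tfe3 bind E-box elements near many lysosomal genes and are held in the cytosol by the kinase mTORC1, so their RNA level is not a measure of their activity. In carcinomas, cathepsins are also known as secreted proteases that cleave matrix proteins.

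Total counts per library lay between 57073866 and 66302502, and all 31 genes passed the filter on low counts. Of 11 bile duct markers, Krt8, Krt18, Krt19, Spp1 and Sox9 were expressed, Epcam was at 0.753 to 1.85 FPKM (a level per transcript length and library size), and Krt7, Cldn4 and Prom1 were each at 0.222 or less in every library, so part of the listed markers were near 0. The first 5 were called higher with HGF. One library stands apart: Control 3 had a summed FPKM of 99.1 over 16 macrophage markers and 217 over 10 skeletal muscle markers, where the other 5 libraries had 17.1 to 22.0 and 2.23 to 3.81. The summed FPKM of 12 hepatocyte markers was 12.97, 15.5 and 21.1 in HGF 1 to 3, against 3.32, 3.69 and 2.64 in Control 1 to 3, and 10 of the 12 were called higher. The summed FPKM of 5 lymphocyte markers in the table was at most 0.259 in any library. No marker in the table was at 0 in all libraries, though the macrophage genes Marco and Clec4f were detected in 1 library each. The 31 genes took 1.04%, 1.03% and 1.01% of counts in HGF 1 to 3, against 1.05%, 1.02% and 1.05% in Control 1 to 3, and these shares overlap. In bulk samples, fewer cells of a type and less RNA per cell cannot be told apart.

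HGF was followed by changes in both directions within the lysosome. With HGF, 11 of 31 genes rose and 8 fell past an adjusted p of 0.05 (edgeR quasi-likelihood test on counts, Benjamini-Hochberg over 17322 genes), and 12 did not pass. Over all tested genes 38.5% were called, 19.1% higher and 19.3% lower, against 35.5% higher and 25.8% lower of these 31. Changes were small: only Cd68 rose and only Man2b1 and Mcoln1 fell past the threshold by at least 1.5-fold. Of all genes, 6.41% were called higher and 5.77% were called lower with a change of at least that size. The median log2 fold change (HGF over control) of the 31 was 0.06, against -0.02 over all genes. With the sign left aside, the median size of the change was log2 0.227 for the 31, against 0.290 over all tested genes. Without the scaling factors of TMM (trimmed mean of M-values), which correct for library composition, the median over all genes was -0.13 and the split of the 31 was 8 higher and 13 lower. In that setting 2361 of the 17322 genes were called higher and 4941 lower. Directions of small changes therefore depend on the scaling, and the FPKM values given below lack that correction. FPKM values did not overlap between the groups in 10 genes higher with HGF and 13 lower, where all genes gave 18.6% and 34.9%. Without Control 3, 10 genes rose and 10 fell, and without HGF 2, 8 rose and 8 fell.

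**Figure D1:**
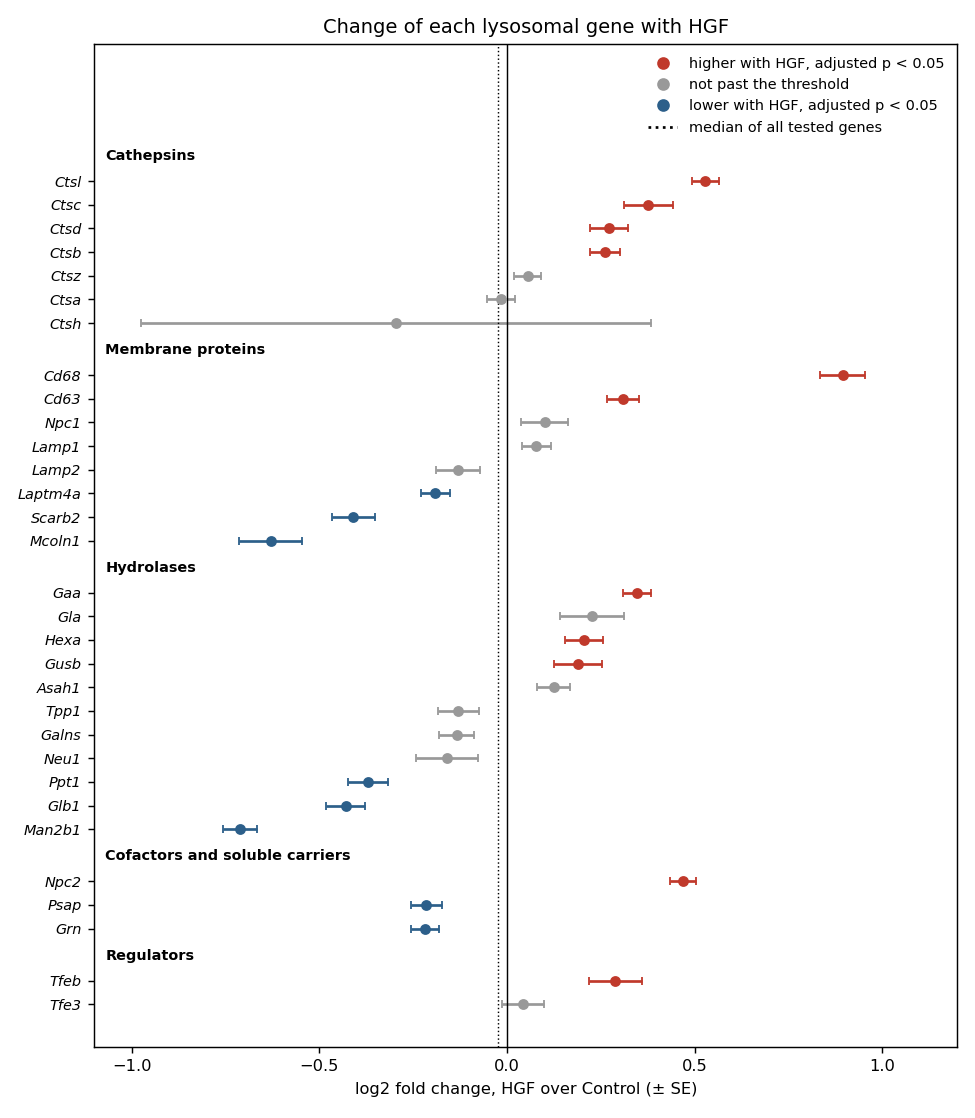
Log2 fold change of each of the 31 lysosomal genes, HGF over Control, with its standard error, from 3 libraries per group, grouped by role. Red points (11) rose and blue points (8) fell past the threshold, grey points did not pass it, and the dotted line marks the median of all tested genes at -0.02. Cd68 lies farthest to the right at 0.89 and Man2b1 farthest to the left at -0.71.

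Of the 31 genes, 13 lay above the 95th percentile of mean FPKM among tested genes. The highest were Grn, Psap and Ctsd, and the lowest was Ctsh. Apart from Ctsh, the coefficient of variation of FPKM among libraries of a group was between 0.600% and 11.9% with HGF and between 0.367% and 10.7% in controls.

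**Figure D2:**
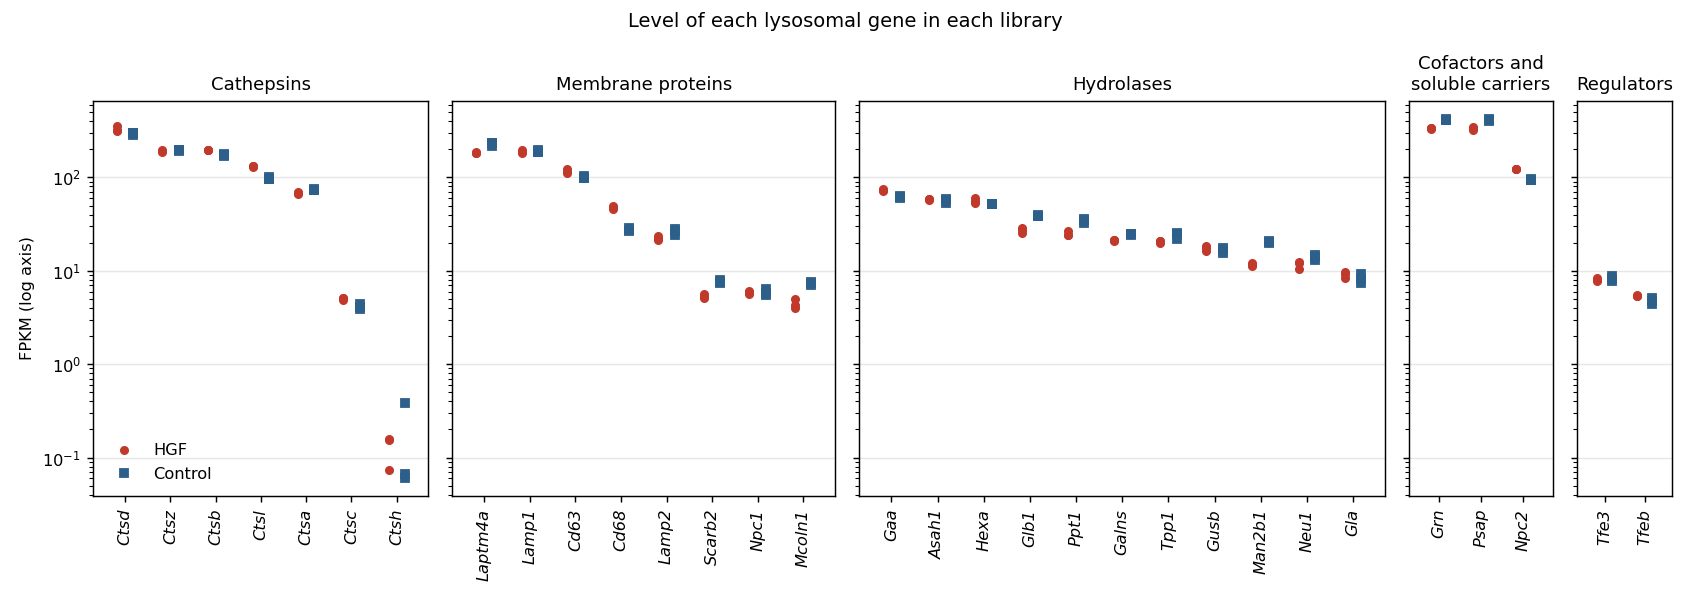
FPKM of each lysosomal gene in each library on a log axis, HGF (red circles) left of Control (blue squares), ordered by mean level within each role. Levels run from Grn at a mean of 336 with HGF and 417 in controls down to Ctsh at 0.129 with HGF and 0.170 in controls, the one gene whose 3 control libraries lie far apart.

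Among the cathepsins, 4 of 7 rose and 0 fell, with a median log2 fold change of 0.26. Ctsl (ENSMUSG00000021477, chromosome 13, 64359337 to 64370890), a cysteine endopeptidase, had an FPKM of 130, 133 and 132 in HGF 1 to 3, against 100.2, 97.0 and 95.8 in Control 1 to 3. The groups did not overlap, and the rise was 1.44-fold (log2 0.53 ± 0.04 SE, adjusted p = 1.48e-05). Ctsc, the dipeptidyl peptidase that activates granule serine proteases in immune cells, was at an FPKM of 4.86, 5.09 and 5.06 with HGF and 4.37, 4.07 and 3.91 in controls. It rose by log2 0.38 ± 0.07 (adjusted p = 0.00206). Ctsd (ENSMUSG00000007891, chromosome 7, 142375911 to 142388038), the main aspartic protease of the lysosome, was at 354, 325 and 318 with HGF and 302, 282 and 296 in controls. Every HGF library was above every control, by log2 0.27 ± 0.05 (adjusted p = 0.00305). Ctsb, a cysteine protease with both endopeptidase and carboxypeptidase activity, was at 195, 196 and 197 with HGF and 175, 169 and 179 in controls, a rise of log2 0.26 ± 0.04 (adjusted p = 0.00103). Its gene body overlaps Fdft1 on the opposite strand, which had a mean of 6434.5 counts against 79807 for Ctsb.

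The other 3 cathepsins gave no call. Ctsz, a carboxypeptidase, averaged 192 ± 3.36 FPKM with HGF and 197 ± 3.13 in controls (SD, n = 3 each). Its log2 fold change was 0.06, with a 95% interval of -0.03 to 0.14. Its sign turned without TMM scaling, and it overlaps Nelfcd on the opposite strand (a mean of 5982.3 counts against 19912.3 for Ctsz). The serine carboxypeptidase Ctsa, which also protects Glb1 and Neu1 from degradation, was at 68.3 ± 1.68 with HGF and 73.7 ± 0.853 in controls. Its FPKM did not overlap between groups, but after TMM scaling the log2 fold change was -0.02 with an interval of -0.10 to 0.07. It was called lower without TMM (log2 -0.12, adjusted p = 0.0266) and its sign turned with DESeq2. The aminopeptidase gene Ctsh was near the detection limit, with counts of 26, 52 and 54 in HGF 1 to 3 and 26, 21 and 113 in Control 1 to 3. The highest value is in Control 3, the library with most macrophage transcripts, and without it the log2 fold change was 1.02 (adjusted p = 0.140) in place of -0.30 (adjusted p = 0.770).

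The membrane proteins held both the strongest rise and one of the strongest falls. Of 8, 2 rose and 3 fell. Cd68 (ENSMUSG00000018774, chromosome 11, 69664213 to 69666153), a glycoprotein of the LAMP family best known as a macrophage marker, had an FPKM of 46.4, 48.0 and 49.5 in HGF 1 to 3. The controls were at 26.5, 27.2 and 29.0. The groups lay far apart, and Cd68 rose 1.86-fold (log2 0.89 ± 0.06, adjusted p = 1.47e-05). Of 13 macrophage markers tested 0 were called higher and 1 lower with HGF, and the summed level of that list was 18.1 to 22.0 FPKM with HGF and 17.1, 19.8 and 99.1 in controls. Without Control 3, 3 macrophage markers were called higher and 0 lower, and without Control 1, 0 higher and 4 lower. Without Control 3, the log2 fold change of Cd68 was 0.94 (adjusted p = 4.29e-05). The part of macrophage transcripts in the Cd68 result was not tested. Cd63, a tetraspanin of lysosomes and exosomes, was at 123, 114 and 113 with HGF and 103, 99.3 and 98.4 in controls, and rose by log2 0.31 ± 0.04 (adjusted p = 6.30e-04).

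Mcoln1 (ENSMUSG00000004567, chromosome 8, 3500457 to 3515232), the channel that releases calcium from the lysosome, was at 5.02, 4.29 and 3.99 FPKM with HGF and 7.60, 7.04 and 7.36 in controls. It fell to 0.646 of the control level (log2 -0.63 ± 0.08, adjusted p = 5.39e-04). Scarb2, a membrane protein that carries an enzyme to the lysosome, was at 5.66, 5.32 and 5.14 with HGF and 7.88, 7.504 and 7.49 in controls. Every HGF library was below every control (log2 -0.41 ± 0.06, adjusted p = 6.98e-04). Laptm4a, a membrane protein of late endosomes and lysosomes, fell by 0.19 (SE 0.04, adjusted p = 0.00407), with 186 ± 3.47 against 226 ± 9.03 FPKM in controls. The abundant structural glycoprotein gene Lamp1 had 190 ± 6.01 FPKM with HGF and 192 ± 5.89 in controls, and its log2 fold change of 0.08 (interval -0.01 to 0.17) turned sign without TMM. Its relative Lamp2, which also serves chaperone-mediated autophagy, had 22.5 ± 1.16 FPKM with HGF and 26.4 ± 2.09 in controls (log2 -0.13, interval -0.26 to 0.00315, adjusted p = 0.114). Lamp2 was called lower without Control 3 (adjusted p = 0.0269). Npc1, the membrane exporter of cholesterol, had 5.90 ± 0.201 FPKM with HGF and 5.88 ± 0.476 in controls, and its log2 fold change was 0.10 (interval -0.04 to 0.24). It overlaps Rmc1 on the opposite strand, with a mean of 2670.5 counts against 4751.3 for Npc1.

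The 11 hydrolases gave 3 higher, 3 lower and 5 without a call (median log2 fold change -0.13). The number higher was 1 without HGF 2 and 5 without HGF 3. Those that rose were Gaa, Hexa and Gusb. Gaa, the acid glucosidase that degrades glycogen, was at an FPKM of 75.4, 72.9 and 72.1 with HGF and 63.1, 60.6 and 61.4 in controls. The groups did not overlap (log2 0.35 ± 0.04, adjusted p = 1.82e-04). Hexa, a subunit of the hexosaminidase that degrades ganglioside GM2, was at 59.95, 56.1 and 52.8 with HGF and 52.1, 52.4 and 52.0 in controls. HGF 3 was only just above the controls. The call (log2 0.21 ± 0.05, adjusted p = 0.0119) was lost in 5 of 15 alternative settings, among them without HGF 2 (adjusted p = 0.0570) and without TMM (adjusted p = 0.121). Gusb, the glucuronidase, had 17.5 ± 1.21 FPKM with HGF and 16.4 ± 1.01 in controls, with overlapping groups. Its call (log2 0.19 ± 0.06, adjusted p = 0.0432) was lost in 9 of 15 alternative settings. Among these were the fits without HGF 1 (adjusted p = 0.119), HGF 2 (0.131), Control 2 (0.114) or Control 3 (0.129).

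The hydrolases that fell did so by more. Man2b1 (ENSMUSG00000005142, chromosome 8, 85083270 to 85098282), the mannosidase that trims N-glycans during glycoprotein breakdown, was at an FPKM of 12.1, 11.5 and 11.3 with HGF and 20.3, 19.9 and 20.9 in controls. This was the largest fall among the 31 genes (log2 -0.71 ± 0.05, adjusted p = 1.08e-05). Glb1, the beta-galactosidase whose activity is used as a senescence marker, was at 29.0, 27.2 and 25.6 with HGF and 38.9, 39.0 and 39.9 in controls. No HGF library came near a control (log2 -0.43 ± 0.05, adjusted p = 3.37e-04). Ppt1, the thioesterase that removes palmitate from proteins, was at 26.5, 24.4 and 24.3 with HGF and 36.3, 35.2 and 32.3 in controls (log2 -0.37 ± 0.05, adjusted p = 8.14e-04). Its gene body overlaps Cap1 on the opposite strand, which had a mean of 28714.7 counts against 7788.3 for Ppt1, and the sources used here do not say whether counting used strand.

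The remaining 5 hydrolases gave no call. Galns, a sulfatase of keratan sulfate breakdown, had 21.2 ± 0.492 FPKM with HGF and 24.8 ± 0.376 in controls, and just missed the threshold (log2 -0.13, adjusted p = 0.0508). The acid ceramidase gene Asah1 missed it as narrowly on the other side, with 58.0 ± 0.574 FPKM under HGF and 56.9 ± 3.19 in controls (log2 0.12, adjusted p = 0.0502). Gla, the alpha-galactosidase A, had a log2 fold change of 0.23 (interval 0.03 to 0.42, adjusted p = 0.0656). Neu1, the lysosomal sialidase, was at -0.16 (interval -0.35 to 0.03) and Tpp1, a tripeptidyl peptidase, at -0.13 (interval -0.26 to -0.00272, adjusted p = 0.0999). Each of the 5 was called in some alternative settings, and in every setting run its sign was as given.

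All 3 soluble cofactors and carriers were called. Npc2, which hands cholesterol to Npc1 inside the lysosome, was at an FPKM of 123, 124 and 122 with HGF and 97.4, 94.3 and 93.7 in controls. It rose 1.38-fold (log2 0.47 ± 0.04, adjusted p = 2.53e-05). Psap, the precursor of the saposins that present sphingolipids to their hydrolases, was at 344, 338 and 324 with HGF and 417, 407 and 422 in controls. Grn, which encodes progranulin, was at 336, 339 and 331 with HGF and 415, 410 and 425 in controls. These abundant transcripts both fell, with log2 fold changes of -0.21 ± 0.04 for Psap (adjusted p = 0.00312) and -0.22 ± 0.04 for Grn (adjusted p = 0.00191).

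Ratios of FPKM within a library do not depend on the scaling between libraries, and 4 were computed, with pairs chosen after their values were seen. Npc2 to Npc1 stood at 20.4, 20.8 and 21.5 in HGF 1 to 3, against 15.2, 16.3 and 17.1 in Control 1 to 3. Ctsa to Glb1, members of one enzyme complex, stood at 2.41, 2.50 and 2.61 in HGF 1 to 3, against 1.87, 1.89 and 1.87 in Control 1 to 3. An exact permutation test gave p = 0.1 for each of the 4, the smallest value possible with 3 libraries per group. Since the pairs were chosen on these values, that test carries no weight and the ratios are a description only.

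The regulators changed little. Tfeb was at an FPKM of 5.39, 5.46 and 5.42 with HGF and 4.76, 4.40 and 5.06 in controls. It rose by log2 0.29 ± 0.07 (adjusted p = 0.0116). That call was lost in 3 of 15 alternative settings, among them without HGF 2 (adjusted p = 0.0505) and without TMM (adjusted p = 0.0581). Tfe3 had 7.99 ± 0.295 FPKM with HGF and 8.28 ± 0.503 in controls. Its log2 fold change of 0.04 (interval -0.08 to 0.17) turned sign without TMM. Their relative Mitf, from the list of nutrient-sensing genes, was at 1.52, 1.69 and 1.71 FPKM with HGF and 1.05, 1.005 and 1.10 in controls, and rose by log2 0.74 ± 0.10 (adjusted p = 5.57e-04).

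Promoter windows were searched for the E-box letters that this factor family binds. RefSeq windows (build GRCm38.p6) of 300 bases, 250 before and 50 after a transcription start, were available for 26 of the 31 genes. The letters CACGTG, which read the same on both strands, stood in the windows of 8 of these 26 genes (30.8%), against 8.09% of 27025 genes in the RefSeq table and 11.1% of tested genes with a window. Of the 8, Ctsd, Ctsl and Gaa rose, Glb1 and Mcoln1 fell, and Ctsa, Gla and Lamp1 gave no call. The longer palindrome TCACGTGA, which contains it, stood in 4 of 26 (Ctsa, Ctsd, Gla and Mcoln1; 15.4% against 1.12% of genes in the table and 1.99% of tested genes with a window). GTCACGTG on either strand stood in 6 of 26 (23.1% against 2.55% and 4.37%), and the related TCATGTGA on either strand in 4 of 26 (15.4% against 1.15% and 0.894%: Gla, Grn, Ppt1 and Tpp1). A match is a string of letters, not a measured binding site.

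The windows of 5 genes are shown, 5′ to 3′ on the strand of the gene, with each CACGTG in capitals: Ctsd, which rose (chr7:142387778-142388077, minus strand), Mcoln1, which fell (chr8:3500269-3500568, plus strand), Lamp1, which was not called and holds the most copies (chr8:13158911-13159210, plus strand), and the genes with the largest rise and fall, Cd68 (chr11:69666121-69666420, minus strand) and Man2b1 (chr8:85083019-85083318, plus strand), which hold none.
Ctsd: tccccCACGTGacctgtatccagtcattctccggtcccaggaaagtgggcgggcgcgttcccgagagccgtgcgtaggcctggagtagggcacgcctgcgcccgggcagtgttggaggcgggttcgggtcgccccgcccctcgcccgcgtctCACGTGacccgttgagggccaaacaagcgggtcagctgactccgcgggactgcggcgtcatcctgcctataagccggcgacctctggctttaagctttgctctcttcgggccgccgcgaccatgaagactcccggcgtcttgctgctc
Mcoln1: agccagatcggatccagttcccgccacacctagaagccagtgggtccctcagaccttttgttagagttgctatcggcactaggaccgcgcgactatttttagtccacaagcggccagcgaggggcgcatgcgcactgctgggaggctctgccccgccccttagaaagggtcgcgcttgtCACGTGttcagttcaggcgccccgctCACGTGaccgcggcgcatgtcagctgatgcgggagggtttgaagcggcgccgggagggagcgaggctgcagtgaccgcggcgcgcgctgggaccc
Lamp1: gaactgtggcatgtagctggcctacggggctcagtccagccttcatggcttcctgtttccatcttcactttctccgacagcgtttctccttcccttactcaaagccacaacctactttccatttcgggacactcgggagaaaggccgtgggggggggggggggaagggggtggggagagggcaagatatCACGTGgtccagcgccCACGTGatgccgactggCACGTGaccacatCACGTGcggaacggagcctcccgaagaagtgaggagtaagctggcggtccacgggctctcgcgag
Cd68: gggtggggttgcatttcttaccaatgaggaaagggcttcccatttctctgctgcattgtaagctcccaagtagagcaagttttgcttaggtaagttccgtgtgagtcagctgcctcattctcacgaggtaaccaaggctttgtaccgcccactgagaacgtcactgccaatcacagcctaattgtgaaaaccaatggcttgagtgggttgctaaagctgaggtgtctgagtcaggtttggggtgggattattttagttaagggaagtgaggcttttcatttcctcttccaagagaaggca
Man2b1: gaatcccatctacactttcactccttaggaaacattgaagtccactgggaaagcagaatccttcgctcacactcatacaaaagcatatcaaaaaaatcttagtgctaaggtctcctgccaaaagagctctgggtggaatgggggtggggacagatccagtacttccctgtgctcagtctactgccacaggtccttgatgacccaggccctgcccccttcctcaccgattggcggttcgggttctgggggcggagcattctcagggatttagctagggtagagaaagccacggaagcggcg

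Counted from the RefSeq start of each window, the copies begin 245 and 98 bases before it in Ctsd and 71 and 45 in Mcoln1. In Lamp1 they begin 61, 45, 28 and 15 bases before it. By the gene positions of the deposited table given above, the copy at 98 in Ctsd and the copy at 45 in Mcoln1 lie inside the gene. Their place relative to the start used in these cells is not known.

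Other genes of the lysosome fell more often than they rose, which sets the 31 genes in context. The 8 lists hold 134 further genes, among them cystatins and genes of enzyme sorting, nutrient sensing and autophagy, not all of which encode lysosomal proteins. Of the 127 tested, 15 rose and 53 fell (11.8% and 41.7%, against 19.1% and 19.3% of all genes). Their median log2 fold change was -0.12. The count of risers was 8 without HGF 2, 9 without Control 2, 10 without HGF 1 and 7 without TMM. That of fallers was at least 45 with any 1 library left out and 71 without TMM. Over all 17322 genes, falls also became more frequent without TMM (4941 in place of 3349). Of genes that the deposited table assigns to the KEGG lysosome term, leaving out the 28 of the 31 that carry it, 89 were tested, and 10 rose and 35 fell (39.3%). That count of 10 was 6 without HGF 1, HGF 2 or Control 2. The lists and this term share genes, so they are not separate evidence.

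The proton pump had the highest share of falls among these lists, with 11 of 16 genes lower and 1 higher (median log2 fold change -0.21). Without Control 3 the count was 10 lower and 1 higher, and without Control 1 or Control 2 it was 9 lower and 0 higher. Atp6v0a1, a membrane subunit, was at an FPKM of 11.2, 11.3 and 11.1 with HGF and 15.6, 15.6 and 14.8 in controls (log2 -0.36 ± 0.04, adjusted p = 2.38e-04). Its groups were well apart. The accessory subunit gene Atp6ap1 fell by 0.30 (SE 0.05, adjusted p = 0.00107). Atp6v1g1, a peripheral subunit, was the one that rose (log2 0.12 ± 0.04, adjusted p = 0.0361), a call lost without HGF 2, Control 1 or Control 2 and without TMM.

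**Figure D3:**
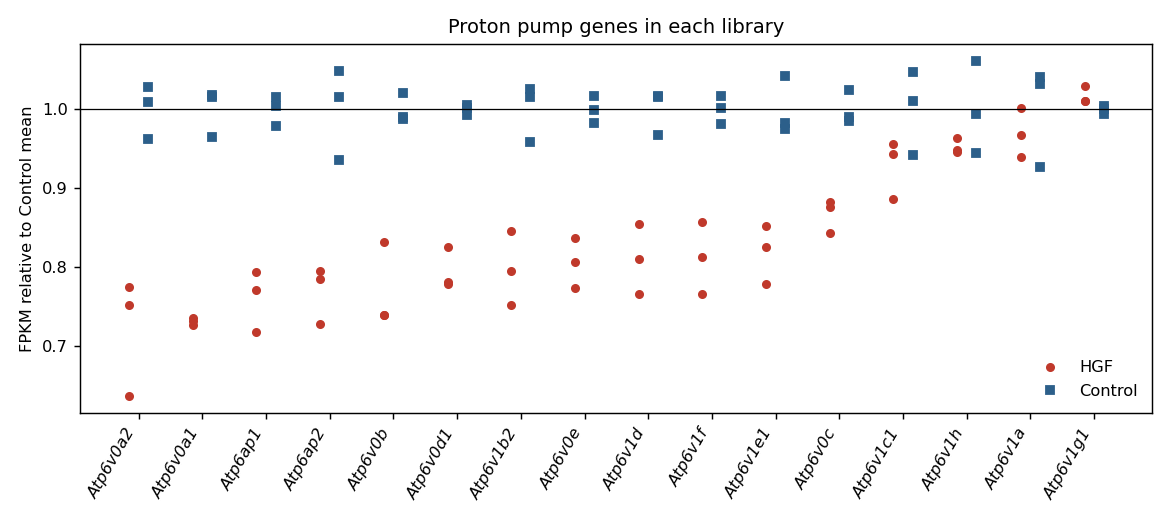
FPKM of 16 proton pump genes in each library, divided by the mean of the 3 controls, HGF (red circles) left of Control (blue squares), ordered by log2 fold change. From Atp6v0a2 to Atp6v0c the HGF libraries lie below every control, and Atp6v1g1 lies at the right end (FPKM 96.3 with HGF and 94.6 in controls).

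Further membrane proteins and their partners gave 12 lower and 1 higher of 23 (median -0.26). The potassium and proton channel gene Tmem175 was at 4.01 ± 0.0838 FPKM with HGF and 6.85 ± 0.302 in controls (log2 -0.68 ± 0.06, adjusted p = 5.74e-05). Slc38a9, the arginine sensor that links the lysosome to mTORC1, was at 0.414 ± 0.0205 FPKM with HGF and 0.835 ± 0.0614 in controls, a fall of 0.91 (SE 0.10). Tpcn1, an ion channel gene, rose by log2 0.20 ± 0.06, a call lost without HGF 1, HGF 2, Control 2 or Control 3. Further hydrolases gave 11 lower and 3 higher of 25 (median -0.13), with 5 higher without HGF 3 and 2 higher without any other single library. Fuca1, the fucosidase, fell by 0.69 (SE 0.07) and the iduronate sulfatase gene Ids by 0.60 (SE 0.06), while the arylsulfatase gene Arsa rose by 0.26 ± 0.05. All of these passed the threshold.

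Other cathepsins and their inhibitors gave few calls. Of 6 further cathepsin genes tested, Ctso fell (7.24 ± 0.320 FPKM with HGF and 11.5 ± 0.0313 in controls, log2 -0.57 ± 0.05) and Ctsw rose at a low level (0.393 ± 0.0622 FPKM with HGF and 0.160 ± 0.0706 in controls, adjusted p = 0.0385). The Ctsw call held only without Control 3 among the refits with 1 library left out. Ctss, a cathepsin of antigen-presenting cells named after its values were seen, had counts of 270, 86 and 186 with HGF and 237, 255 and 1354 in controls, highest in Control 3 like the macrophage markers, and was not called (adjusted p = 0.0821). Among 3 cystatins tested, genes for inhibitors of cysteine cathepsins, Cstb rose (149 ± 5.66 FPKM with HGF and 128 ± 0.837 in controls, log2 0.32 ± 0.05) and Cst3 fell by 0.14 (SE 0.05, adjusted p = 0.0479). The Cst3 call held only without Control 2 among those refits.

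Enzyme sorting genes stayed mostly without a call, with 2 higher and 1 lower of 15, and 1 higher without HGF 1, HGF 2, Control 2 or Control 3. Gga2, an adaptor for mannose 6-phosphate receptors, rose by log2 0.48 ± 0.08 and Ap3b1, a subunit of the AP-3 adaptor, by 0.14 ± 0.05, while Sort1, the receptor sortilin, fell by 0.36 (SE 0.07). Nutrient-sensing genes gave 4 higher and 5 lower of 17, with Fnip2, a partner of folliculin, higher by 0.48 ± 0.07 beside Mitf, and Tsc2 and Lamtor4 lower by 0.36 (SE 0.05) and 0.42 (SE 0.07). Tsc2 restrains mTORC1, and Lamtor4 is part of the Ragulator complex that anchors it. Autophagy genes gave 11 lower and 2 higher of 22 (median -0.14). Ulk1, the kinase that starts autophagy, was at an FPKM of 5.41, 4.94 and 4.57 with HGF and 9.56, 8.89 and 8.20 in controls, a fall of 0.74 (SE 0.08, adjusted p = 1.44e-04), and the lipid scramblase gene Atg9a fell by 0.44 (SE 0.06). Rab7, a GTPase of late endosomes, and the cargo receptor gene Sqstm1 rose by log2 0.15 ± 0.04 and 0.12 ± 0.04. The count of autophagy genes that rose was 1 without HGF 1 or HGF 2, and of those that fell 7 without Control 1 and 14 without TMM.

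**Figure D4:**
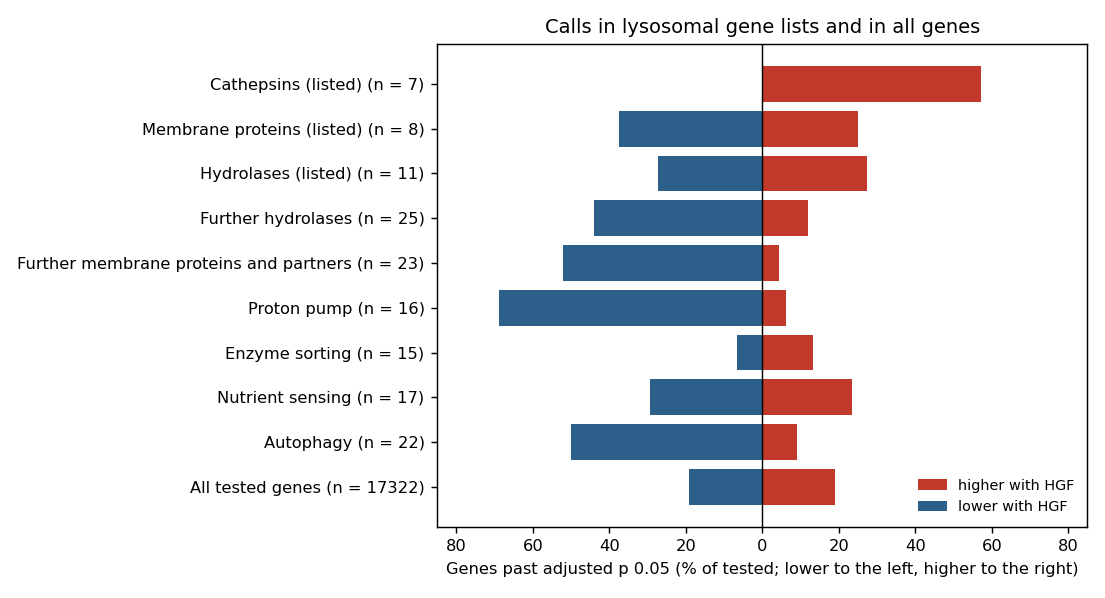
Share of tested genes past adjusted p 0.05 in the lists drawn, higher with HGF to the right (red) and lower to the left (blue), with the number tested in brackets. Not drawn are the cofactors, regulators, cystatins and further cathepsins (16.7% higher and 16.7% lower of 6 tested). Cathepsins reach 57.1% higher and 0 lower, the proton pump 6.25% higher and 68.8% lower, and all tested genes 19.1% and 19.3%.

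**Figure D5:**
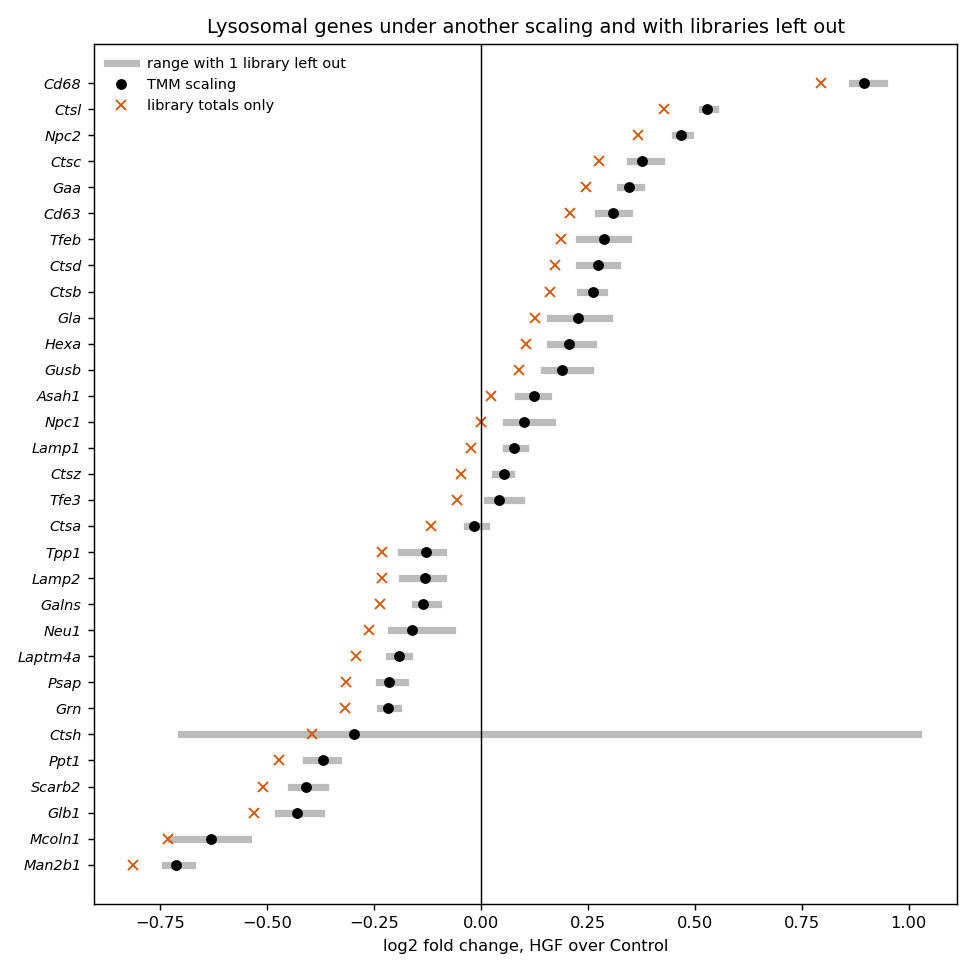
Log2 fold change of each of the 31 genes, HGF over Control, with TMM scaling (black points) and with library totals only (orange crosses), and the range with 1 library left out at a time (grey bars). The crosses lie about 0.10 to the left of the points, and the long bar of Ctsh runs from -0.70 to 1.02.

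In 15 alternative settings, 15 of the 19 called genes kept their call and direction throughout. These were Cd68, Ctsl, Npc2, Ctsc, Gaa, Cd63 and Ctsb among those that rose, and Man2b1, Mcoln1, Glb1, Scarb2, Ppt1, Grn, Psap and Laptm4a among those that fell. The plot of changes under another scaling shows their positions. Ctsd lost its call only with limma on unfiltered FPKM (adjusted p = 0.0765). The hepatocyte markers were higher in the same HGF libraries as the rises given above, at a summed FPKM of at most 21.1, beside 2592 to 2703 for the 31 genes in those libraries, and their part in the results was not tested.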

How the data were processed

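Poly(A) RNA of 6 libraries was sequenced paired-end by Illumina, per the labels' protocols, which also speak of adipose material. Build mm8 and the tools StringTie 1.3.0, HISAT2 2.0 and Bowtie 0.12.2 come from the submitters' processing notes. Their roles, the annotation and the strand setting: not given in the sources used here. The authors' table holds deposited whole-number counts and deposited FPKM per gene and library. Its coordinates equal those of GENCODE M21 (GRCm38) for 28 of the 31 genes, not for Ctsa, Ppt1 and Grn. They are also equal for 25351 of the 28133 identifiers found in M21. The gene positions given above are therefore read as GRCm38, not as the stated mm8.

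Columns were matched to samples by name. Low counts were removed by filterByExpr. TMM scaling followed (factors 0.963 to 0.968 with HGF and 1.03 to 1.04 in controls), and the fit used edgeR 4.0.16 in R 4.3.3 (quasi-likelihood, two-sided, Benjamini-Hochberg over 17322 genes, threshold 0.05). The standard error is the log2 fold change over the square root of F, and intervals use its total degrees of freedom. The procedure was tested on simulated data. A count of 4 was more frequent (a mean of 1108.5 genes per library) than 3 (527.33), but counts of 1 (814.67) and 2 (701.17) were frequent as well. Many read pairs may thus weigh about 4 counts, in which case totals overstate depth. No 2 libraries were duplicates: within groups, chi-square over its degrees of freedom was 2.85 to 7.13. Alternatives were DESeq2 1.42.0, other filters and scalings, limma 3.58.1 on log2(FPKM + pseudocount), which shrinks changes of low genes, and, with edgeR, counts divided by 4, a replicate block and each library left out.

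The 31 genes and all lists were chosen with earlier results of these data known. All 31 are named, with, of each further list, up to 2 called genes per direction with the smallest p, and any gene named beyond that rule is marked as picked with its values in view. Results on some items are not reported here.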

Additional observations from a re-analysis of the deposited data

How the results depend on the processing

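Of 463 refits of single genes, 396 kept direction and side of the threshold, 18 lost a call, 31 gained one and 18 turned sign, all of the last in genes not called. Without TMM, Ctsz, Lamp1 and Tfe3 were at -0.0455, -0.0220 and -0.0567, and at -0.0399, -0.02 and -0.0455 with limma on log2(FPKM + 1), filtered or not, or -0.0401, -0.0167 and -0.0504 with a pseudocount of 0.1. Ctsa was at 0.00310 with DESeq2, 0.00308 with median-of-ratios scaling, and between -0.0317 and 0.0132 with 1 library left out. Ctsh was at 0.10 with the replicate block and at -0.70 to 1.02 with 1 library left out. Over all genes the median log2 fold change was -0.13 without TMM, -0.00532 with DESeq2 and -0.0233 with the replicate block. The cause of the turns in sign was not tested.

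Lysosomal genes that rose numbered 7, in place of 11, with limma on unfiltered FPKM, and those that fell 13, in place of 8, without TMM and with limma on filtered FPKM (either pseudocount). Genes of the 8 further lists that rose numbered 7, in place of 15, without TMM. They numbered 6 with limma on filtered FPKM, 7 without that filter, and 8 to 18 with 1 library left out. Over all genes, 3316 higher calls became 2061, 2050 and 2065 with the limma settings, and the share of calls that were higher, 49.8%, became 32.3% without TMM and 32.7% to 35.0% with limma.

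Replicate numbers were not treated as pairs in the main fit, and whether they mark paired cultures is not known. Deviations from the group means correlated weakly, at 0.126, 0.0522 and 0.0619 for equal numbers and -0.0836 to -0.00648 for unequal ones. Each library correlated best with its own number. With the replicate block 13 of the 31 genes rose and 9 fell, and over all genes 3406 and 3440. Ctsh had 26 to 54 counts with HGF and 21 to 113 in controls, the lowest of the 31 genes.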

Other observations

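Over all tested genes with a promoter window, calls were compared between those that hold an E-box string and those that do not, as a description with no test. Of 232 genes with TCACGTGA, 21.6% rose and 25.9% fell with HGF, against 20.6% and 22.4% of 11400 genes without it. With CACGTG, 332 of 1292 genes rose and 269 fell (25.7% and 20.8%), against 2069 and 2347 of 10340 genes without it. Among genes of the 8 further lists, 29 of 105 with a window held CACGTG (27.6%). Of the 31 genes, 26 had a window, and 8 of these held it (30.8%).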
